A study of Homo sapiens with 2 samples.

Results

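The 38 genes described here are nuclear genes that encode structural subunits of respiratory complexes II, III, IV and V. Complex II has 4 of them, complex III 9, complex IV 10 and complex V 15. The 38 do not include every such gene. They were chosen by name from the composition of the complexes and not by a measured value, though with earlier results of these data known. They are 38 of the 23752 genes and unnamed transcripts measured. All 38 had a probe well above background on both arrays. HepG2 is an established human hepatoma line that keeps many functions of hepatocytes. One culture received dimethyl sulfoxide (DMSO, the vehicle) and the other received hawk tea extract (HTE), an ethanol extract of hawk tea leaves dissolved in DMSO and studied for cholesterol lowering, each for 24 h, with 1 Cy3-labelled array per condition on a shared slide. The sample labels state an HTE dose of 200 µg/mL, whereas the name of the deposited scan and the published description of the array experiment carry 300. No allele, transgene or second treatment was part of either group. With 1 array per condition no test between the conditions was possible, and how far cultures vary was not measured. In such bulk RNA, fewer cells and less RNA per cell cannot be told apart.

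Oxidative phosphorylation couples electron transfer along the inner mitochondrial membrane to ATP production. Complex II (succinate dehydrogenase) oxidises succinate, a step of the citric acid cycle, and reduces ubiquinone. Complex III (the cytochrome bc1 complex) passes electrons from ubiquinol to cytochrome c and pumps protons, complex IV (cytochrome c oxidase) hands them to oxygen, and complex V (ATP synthase) lets protons return through a rotating ring and makes ATP. Hepatocytes are rich in mitochondria. Complexes III, IV and V also hold subunits encoded by mitochondrial DNA, so their assembly draws on transcripts of both genomes. Promoters of nuclear respiratory genes are known for sites of the transcription factors NRF1, the ETS-family factor GABP (also called NRF2), YY1 and Sp1.

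RefSeq promoter windows (GRCh38.p14, 250 bases before to 50 bases after the start) were at hand for 30 of the 38 genes. The letters GCGCATGC (NRF1 core), on either strand, stood in 8 of the 30 windows (26.7%) and in 3.05% of all 35116 windows. CCGGAA (ETS core) stood in 20 (66.7%) against 17.2%, AAGATGGCG (YY1 core) in 3 (10.0%) against 1.75%, and GGGCGG (Sp1 box) in 17 (56.7%) against 45.0%. Matches were allowed to overlap one another. At least 1 of the 4 motifs was found in 26 of the 30, and the median GC content was 61.0% against 58.7% for all windows. A match describes letters and is not a measured binding site. In 14 of the 30, the 250 bases before the start overlapped another annotated gene. That of ATP5PF overlapped GABPA, the gene of the DNA-binding subunit of GABP.

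The 250 bases before the start are printed for 5 genes, in lower case with matches to the 4 motifs in capitals, 5′ to 3′ on the gene's strand. ATP5MC1 (chr17:48892537-48892786, plus strand) had the lowest log2 ratio of the 38, and this window overlaps the uncharacterised LOC105371814. COX5A (chr15:74938074-74938323, minus strand) had the next lowest ratio. ATP5MC2 (chr12:53676084-53676333, minus strand) encodes the same mature protein as ATP5MC1. UQCR11 (chr19:1605463-1605712, minus strand) had the highest ratio. COX6A1 (chr12:120437863-120438112, plus strand) overlaps no other gene there and holds NRF1, ETS and Sp1 letters. The ATP5MC1 window has no match, which says only that these letters are not in it.
ATP5MC1: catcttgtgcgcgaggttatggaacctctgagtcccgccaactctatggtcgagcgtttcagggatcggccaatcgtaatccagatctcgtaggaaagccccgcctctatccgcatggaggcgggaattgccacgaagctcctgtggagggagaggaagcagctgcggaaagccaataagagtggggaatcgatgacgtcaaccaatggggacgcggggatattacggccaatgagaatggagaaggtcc
COX5A: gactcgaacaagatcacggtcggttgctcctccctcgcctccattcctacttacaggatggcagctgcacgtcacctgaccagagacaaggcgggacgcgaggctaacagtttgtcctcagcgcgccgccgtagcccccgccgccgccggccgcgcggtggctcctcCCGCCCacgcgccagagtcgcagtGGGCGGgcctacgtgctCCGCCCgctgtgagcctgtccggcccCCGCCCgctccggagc
ATP5MC2: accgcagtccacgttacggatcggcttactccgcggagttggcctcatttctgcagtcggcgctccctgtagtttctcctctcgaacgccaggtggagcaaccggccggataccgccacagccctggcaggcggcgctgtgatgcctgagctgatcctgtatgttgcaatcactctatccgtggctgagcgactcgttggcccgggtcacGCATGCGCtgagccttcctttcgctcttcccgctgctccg
UQCR11: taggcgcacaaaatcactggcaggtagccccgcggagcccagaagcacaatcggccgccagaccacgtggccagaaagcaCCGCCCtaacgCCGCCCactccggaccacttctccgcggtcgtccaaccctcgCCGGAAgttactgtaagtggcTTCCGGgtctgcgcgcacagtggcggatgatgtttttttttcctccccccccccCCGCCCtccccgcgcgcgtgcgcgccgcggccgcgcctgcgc
COX6A1: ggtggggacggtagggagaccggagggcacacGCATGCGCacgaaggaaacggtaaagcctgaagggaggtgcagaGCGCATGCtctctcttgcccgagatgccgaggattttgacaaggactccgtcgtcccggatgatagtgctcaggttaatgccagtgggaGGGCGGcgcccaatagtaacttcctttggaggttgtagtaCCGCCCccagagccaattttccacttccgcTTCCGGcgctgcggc

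Signals are given as log2 of the processed signal relative to the 75th percentile of the array, and a log2 ratio is HTE minus DMSO on that scale. A probe's signal also depends on its sequence, so signals of different genes are not RNA amounts. Probes of the 38 genes were bright on both arrays. Their DMSO signals ran from 2.14 (SDHD) through a median of 4.10 to 4.61 (UQCRH), and their HTE signals from 2.25 (SDHD) through a median of 4.06 to 4.71 (UQCR11). By mean signal 29 of the 38 were within the top 5% of all genes, and no spot was saturated. The arrays carry their own error. Replicate spots of a probe gave a median SD of the log2 ratio of 0.051 (688 probes with at least 5 spots), different probes of a gene gave a median SD of 0.16 (3759 genes), and the scanner software's error model, with a relative error of 10%, gave a standard error (SE) of 0.20 for a ratio. None of these covers the spread between cultures.

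**Figure D1:**
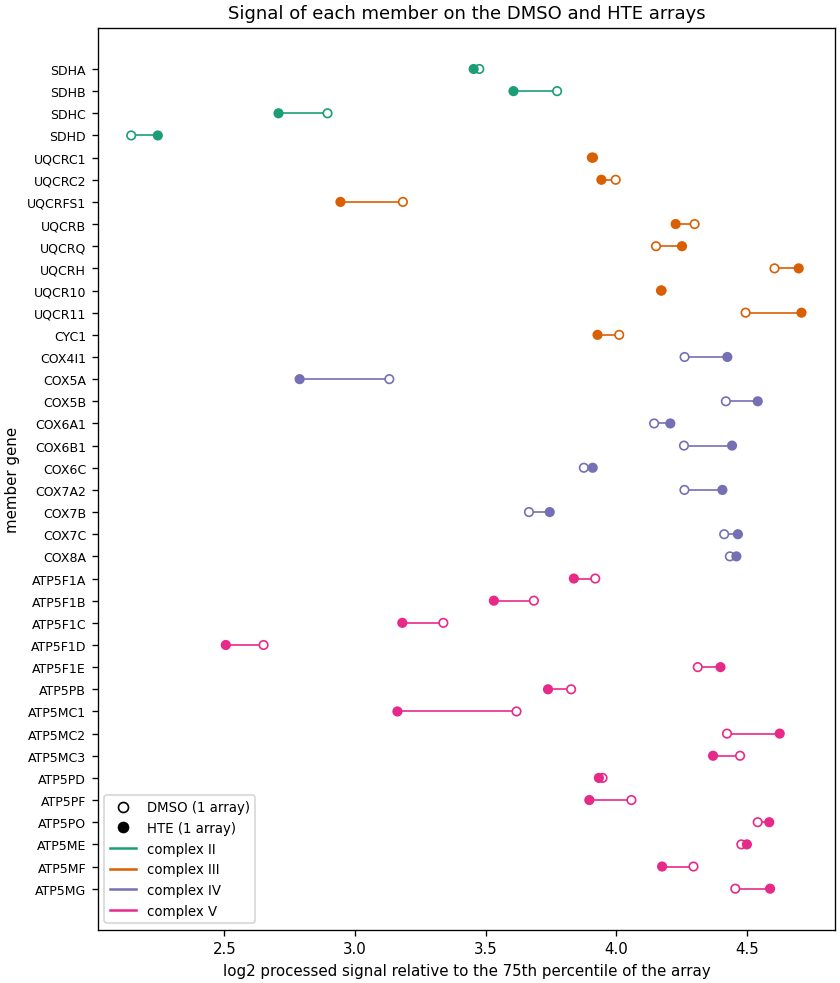
Signal of each of the 38 genes on the DMSO array (open circle) and the HTE array (filled circle), as log2 of the processed signal relative to the 75th percentile of the array, with 1 array per condition and colours for the complexes. The widest gap is that of ATP5MC1 (3.62 to 3.16), and most pairs of circles lie close together.

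The 38 genes differed little between the arrays. Their median log2 ratio was 0.003, with 18 below 0 (47.4%) and 20 above. Below 0 were 49% of all genes measured and 48.7% of the 3791 genes at least as bright as the dimmest of the 38, SDHD. Of all genes, 11631 were below 0 and 10849 above, and the rest stood at exactly 0. The bound used for probes well above background on 1 array only can give that value, which counts as within 0.25 of 0. None of the 38 was changed by 2-fold, the cutoff of the study, in either direction. By that fold 8.29% of all genes were changed, and 1.13% of the genes as bright. At 1.5-fold, none of the 38 was lower (10.5% of all genes, 2.48% of those as bright) and none was higher (12.4% and 3.3%). The ratios ran from −0.46 (ATP5MC1) to 0.21 (UQCR11) with an SD of 0.15, whereas the SD was 0.59 over all genes and 0.31 over the 3753 other genes as bright. In all, 36 of the 38 (94.7%) lay within 0.25 of 0, beside 67.9% of those other genes and 46.3% of all genes. Those other genes share only the lower limit of brightness with the 38. Of the 3753, 3107 were dimmer than the median brightness of the 38. The spread and shares are thus not compared at equal brightness. The SE of the error model was exceeded by 4 of the 38, and its 95% bound by ATP5MC1 alone. ATP5MC1 is the lowest of 38 ratios, and a bound for 1 gene does not allow for that.

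**Figure D2:**
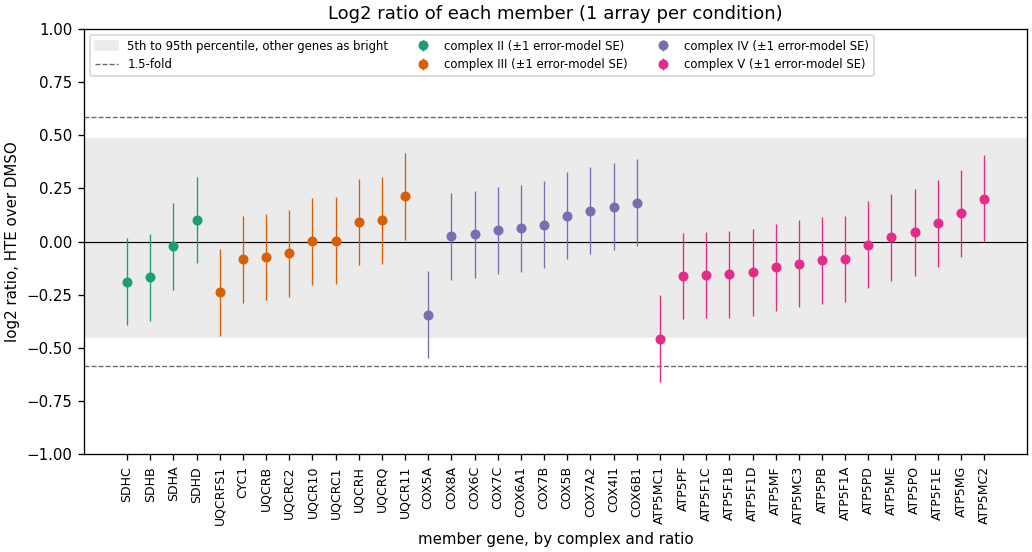
Log2 ratio of each gene, HTE over DMSO, sorted within its complex, with bars of ±1 SE of the scanner software's error model (1 array per condition, no spread between cultures). Grey marks the 5th to 95th percentile of the other genes as bright (−0.45 to 0.48) and dashed lines mark 1.5-fold. ATP5MC1 alone lies just below the grey band, and no point reaches a dashed line.

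In complex II, the only respiratory complex made wholly of nuclear products, the median log2 ratio was −0.09 and 3 of 4 genes were below 0. SDHA, the flavoprotein that oxidises succinate, had signals of 3.48 (DMSO) and 3.45 (HTE), a log2 ratio of −0.02. SDHB, the iron-sulfur subunit that relays the electrons, had 3.77 and 3.61, a ratio of −0.17. Of the membrane anchors, SDHC had 2.90 and 2.71, a ratio of −0.19. These 3 were lower on the HTE array, each by less than 1 SE of the error model. SDHD, the other anchor, was higher there, with 2.14 and 2.25 and a ratio of 0.10. Several probes bore on these genes. With the next brightest probe in place of the brightest, the median of complex II was 0.11 (3 genes). The other probes of SDHC gave 0.72 and −0.28, so the direction of this gene depends on the probe. The 4 probes of SDHA ran from −0.39 to 0.03, with 3 below 0. All 3 probes of SDHD were above 0 (0.03 to 0.11).

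In complex III the median log2 ratio was 0.002, with 4 of 9 genes below 0. The core proteins, which lie on the matrix side, were near 0. UQCRC1 had signals of 3.91 on both arrays (log2 ratio 0.004). UQCRC2 had 3.998 and 3.943, a ratio of −0.05 with an SD of 0.039 among 9 replicate spots, which is an SE of 0.013 for their mean and covers the spots of these arrays only. The catalytic redox subunits were both lower with HTE. UQCRFS1, the Rieske iron-sulfur protein, had 3.18 and 2.94, a ratio of −0.24 and the lowest of complex III. CYC1, cytochrome c1, had 4.01 and 3.93, a ratio of −0.08.

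The 5 small subunits of complex III had a median log2 ratio of 0.09, and 4 of them were above 0. UQCR11, which is bound late in assembly, had signals of 4.49 and 4.71, a ratio of 0.21 and the highest of the 38. UQCRQ had 4.15 and 4.25, a ratio of 0.10. UQCRH, the acidic hinge protein thought to help cytochrome c bind, had 4.61 and 4.70, a ratio of 0.09, and its other probe gave 0.10. UQCRH has a near-identical copy, UQCRHL, for which no probe was named, so the signal of the pair is uncertain. UQCR10 had 4.17 on both arrays. Its other probes gave −0.27 and −0.10, and these were dimmer. UQCRB, which lies near the ubiquinone site, was the one small subunit below 0, with 4.30 and 4.23 and a ratio of −0.07.

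Complex IV had the highest median of the 4 complexes, 0.07, and 9 of its 10 genes were above 0. Of the 10, 7 were among the 19 brighter of the 38. Other genes above that dividing brightness also lay mostly above 0, with 152 of 646 below. The complex IV median was below 0 with arrays scaled to their medians (−0.01) and without scaling (−0.10). There the median of all genes was −0.07 and −0.16. Relative to the median of all genes, complex IV lay between 0.04 and 0.07 over the 7 scalings, normalizations and background corrections compared. The scalings among these shift all genes alike and nearly agree by construction. Only quantile normalization (0.04), cyclic loess (0.06) and normexp background correction (0.07) could have differed more. COX5A, which binds thyroid hormone metabolites and lies on the matrix side, was the exception, with signals of 3.13 (DMSO) and 2.79 (HTE). Its log2 ratio was −0.34, or 1.68 SE of the error model, and its other probe gave −0.28. Both probes of COX5A were thus lower on the HTE array. Relative to the median of all genes, the ratio of its brightest probe lay between −0.38 and −0.31 over those 7 settings.

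The other 9 genes of complex IV had log2 ratios between 0.02 and 0.18. COX6B1, which faces the intermembrane space, had signals of 4.26 and 4.44, a ratio of 0.18. COX4I1, the isoform of the regulatory subunit found in most tissues, had 4.26 and 4.43, a ratio of 0.16. COX7A2, the isoform of subunit VIIa of liver and most other tissues, had 4.26 and 4.41, a ratio of 0.15. These 3 were the highest of the complex and each lay within 1 SE of the error model from 0. COX5B, a zinc-binding subunit of the matrix side, had 4.42 and 4.54, a ratio of 0.12. COX7B, a small membrane subunit, had 3.67 and 3.75, a ratio of 0.08. COX6A1, the non-muscle isoform of subunit VIa, had 4.14 and 4.21, a ratio of 0.06. The last 3 genes were nearest to 0. COX7C had 4.41 and 4.47, a ratio of 0.05 with an SD of 0.073 among 10 replicate spots, which is an SE of 0.023 for their mean. COX6C had 3.88 and 3.91, a ratio of 0.03. COX8A, another small membrane subunit, had 4.43 and 4.46, a ratio of 0.02.

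In complex V the median log2 ratio was −0.09, with 10 of the 15 genes examined below 0. Relative to the median of all genes it lay between −0.10 and −0.08 over the same 7 settings, and it was 0.03 with the next brightest probe, which only 2 of these genes have. The F1 head, where ATP is made on the matrix side, and the central stalk that turns inside it were mostly lower with HTE, with a median of −0.14 and 4 of 5 genes below 0. ATP5F1B, the catalytic beta subunit, had signals of 3.68 and 3.53, a ratio of −0.15. ATP5F1A, the alpha subunit beside it in the head, had 3.92 and 3.84, a ratio of −0.08. ATP5F1C, the gamma shaft, had 3.34 and 3.18, a ratio of −0.16. These differences were 0.40 to 0.77 of the SE of the error model. ATP5F1D, the delta subunit at the foot of the shaft, had 2.65 and 2.51, a ratio of −0.14. ATP5F1E, the epsilon subunit next to it, went the other way, with 4.31 and 4.40 and a ratio of 0.09.

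The peripheral stalk, which holds the head still, had a median log2 ratio of −0.05. ATP5PF (factor 6) had signals of 4.06 and 3.90, a ratio of −0.16. ATP5PB (subunit b) had 3.83 and 3.74, a ratio of −0.09. ATP5PD (subunit d) had 3.95 and 3.93, a ratio of −0.01. Of the stalk, only ATP5PO, the oligomycin sensitivity protein at the top of it, was above 0, with 4.54 and 4.59 and a ratio of 0.04. The accessory subunits of the membrane part, which take part in joining ATP synthase dimers, had a median of 0.02. ATP5MG (subunit g) had 4.46 and 4.59, a ratio of 0.13. ATP5ME (subunit e) had 4.48 and 4.50, a ratio of 0.02, and its other probe gave 0.04. ATP5MF (subunit f) had 4.30 and 4.18, a ratio of −0.12, whereas its other probe gave 0.01, so its direction depends on the probe.

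The widest spread within a role was that of the c ring, the rotor through which protons pass. Its subunit is encoded by ATP5MC1, ATP5MC2 and ATP5MC3, whose precursors differ in the import sequence and give the same mature protein. ATP5MC1 had processed signals of 49363.5 (DMSO) and 31969.6 (HTE), or 3.62 and 3.16 on the log2 scale, a ratio of −0.46, which is a change of −27.1% and lies 2.23 SE of the error model from 0. ATP5MC2 had 86281.9 and 88125.8, or 4.42 and 4.63, a ratio of 0.20. ATP5MC3 had 4.47 and 4.37, a ratio of −0.10. The ratio of ATP5MC2 exceeded that of ATP5MC1 by 0.66, with an SE of 0.29 from the error model alone. Each of the 3 genes was measured by 1 probe with 1 spot per array, so neither a second probe nor replicate spots bear on the difference. The summed level of the shared protein was not measured.

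The order of the log2 ratios went with probe signal, also among these 38 genes. Over the 38, mean signal and log2 ratio had a Pearson's r of 0.58 and a Spearman's rho of 0.67, given as a description, since all points come from the same pair of arrays and their scaling. The 19 dimmer genes had a median ratio of −0.09 with 15 below 0, and the 19 brighter genes had 0.09 with 3 below 0. Other genes as bright showed a tendency of the same sign, with r 0.17 and rho 0.19. Up to the brightness that divides the 38, their median was −0.02 with 1678 of 3107 genes below 0. Above it, their median was 0.12 with 152 of 646 genes below 0. The complexes differ in brightness. Among the brighter 19 were 0 of 4 genes of complex II, 5 of 9 of complex III, 7 of 10 of complex IV and 7 of 15 of complex V. Within complex V, all 8 dimmer genes were below 0 (median −0.15), as were 2 of the 7 brighter ones (median 0.04). Within complex III the medians were −0.07 for the 4 dimmer and 0.09 for the 5 brighter. In complex IV the 3 dimmer genes had a median of 0.03 with 1 below 0, and the 7 brighter had 0.12 with 0 below. The medians of the complexes thus move with brightness, whose part in them was not tested.

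**Figure D3:**
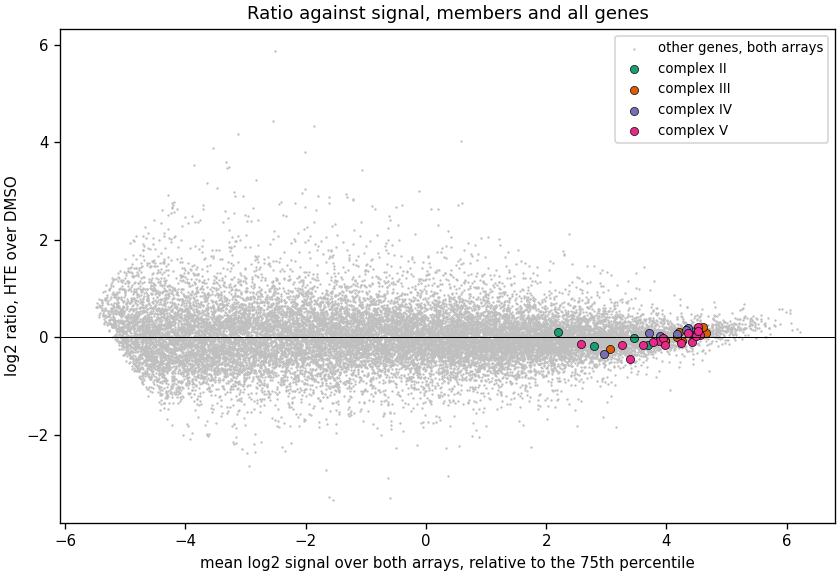
Log2 ratio (HTE over DMSO) against mean log2 signal over both arrays, relative to the 75th percentile, for the 38 genes in colour by complex and all other genes well above background on both arrays in grey (1 array per condition). The 38 genes sit at the bright end, where grey points are also close to 0, and the brighter of them lie higher than the dimmer.

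The identity of a signal was limited by probes and by gene copies. The 38 genes had 52 probes, and 9 genes had several. The probes had one sign in 5 of these 9 (ATP5ME, COX5A, SDHD, UQCRB and UQCRH) and mixed signs in the other 4 (ATP5MF, SDHA, SDHC and UQCR10). The second probe of UQCRB was very dim (−3.36 and −3.38). Genes of the respiratory complexes are known for processed pseudogenes. By RefSeq annotation, 30 of the 38 had at least 1 pseudogene named after them, 138 in all, with 18 for COX6C and 8 for ATP5MC1. Whether a probe also binds such copies could not be read, since probe sequences were not used here.

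**Figure D4:**
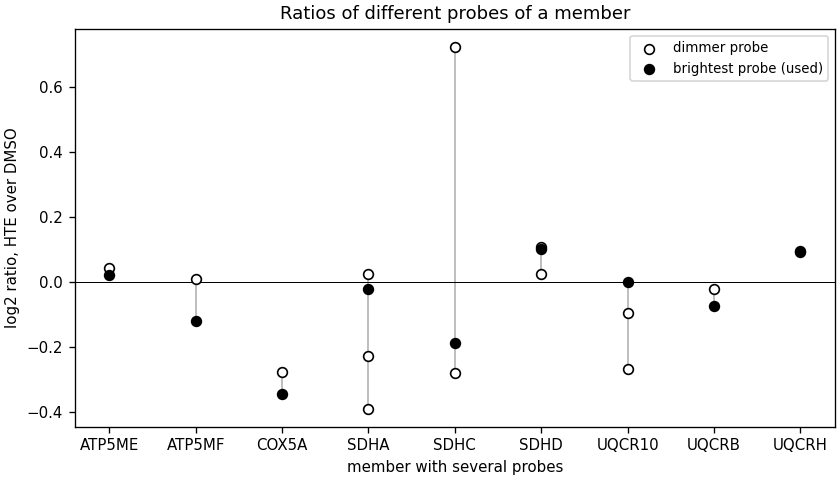
Log2 ratio (HTE over DMSO) of every probe of the 9 genes with several probes, with the brightest probe, which stands for the gene, filled and the dimmer ones open (1 array per condition). One dimmer probe of SDHC at 0.72 lies far from the other 2, while the probes of COX5A, SDHD and UQCRH lie close together.

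Genes that work with these subunits gave a similar picture for the subunits of complex I and a wider one for assembly factors. All 37 nuclear subunits of complex I examined were well above background on both arrays, with a median log2 ratio of 0.02, 17 below 0 and none past 1.5-fold. They ran from NDUFA12 (−0.22) to NDUFA9 (0.20). None of the 13 subunits encoded by mitochondrial DNA had a named probe, so the mitochondrial partners of complexes III, IV and V were not analysed here. Of 42 factors that assemble or adjoin complexes II to V, 39 were measured, with a median of −0.02 and an SD of 0.23. Of these 39, 20 (51.3%) were below 0 and none was past 1.5-fold. Beside these and the complex I subunits (45.9% below 0), 49% of all genes were below 0. Of all genes, 10.5% were 1.5-fold lower and 12.4% were 1.5-fold higher. For complex II the lowest was SDHAF3 (−0.36) and the highest SDHAF4 (0.46). For complex III, UQCC3, needed for early assembly around cytochrome b, had 3.47 and 3.01, a ratio of −0.46, and TTC19 was the highest at 0.26. For complex IV, COX18, which inserts the tail of the mitochondrially made subunit COX2, had −0.46 at a signal close to background, and SURF1 had 0.35. For complex V, ATP5IF1, the inhibitor of ATP hydrolysis, was the lowest at −0.06 and TMEM242, needed for the c ring, the highest at 0.43.

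Cytochrome c and the inner membrane carriers of ATP synthase were also near 0, with a median log2 ratio of 0.02. CYCS, the electron carrier between complexes III and IV, had a ratio of 0.02. The ADP/ATP carriers had −0.001 (SLC25A4), 0.15 (SLC25A5) and 0.06 (SLC25A6), and the phosphate carrier SLC25A3 had −0.04. Among relatives of complex IV subunits, COX7A2L, which takes part in joining complexes III and IV, had signals of 3.47 and 3.85, a ratio of 0.38. COX6B2, known as the testis isoform, had 6.16 and 6.28, a ratio of 0.11. COX7A1, the muscle isoform, was well above background on the DMSO array only and close to its limit, and no fold is given. COX4I2, COX6A2, COX7B2 and COX8C were not well above background on either array. These are tissue-restricted forms of subunits IV, VIa, VIIb and VIII.

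The 15 regulators of respiratory genes had a median log2 ratio of −0.22, with 13 below 0 and 1 at least 1.5-fold lower. Of all genes, 49% were below 0 and 10.5% at least 1.5-fold lower. The subunits had medians near 0, but their DMSO signals began at 2.14, whereas those of the regulators ran from −2.88 to 3.83. Relative to the median of all genes, that of the list lay between −0.42 and −0.19 over the 12 settings compared. The lowest value came without a filter on dim probes, where the median of all genes was 0.20. In that setting the median of the 38 subunits also lay at −0.20 relative to all genes. The next brightest probe also gave −0.42, for 5 of the 15 regulators. In the remaining settings the median of the list lay between −0.27 and −0.19. NRF1 was the gene at least 1.5-fold lower, with signals of −2.88 and −3.63 and a ratio of −0.76, at a dim level. GABPB1, the activating subunit of GABP, had 1.43 and 0.88, a ratio of −0.55, while GABPA, its DNA-binding partner, had −1.02 and −0.81, a ratio of 0.21. ATP5PF, which shares its upstream window with GABPA, had the opposite sign (−0.16). YY1 had a ratio of −0.01. Among coactivators, PPRC1 had −0.36, PPARGC1B −0.22 and PPARGC1A −0.12, and the nuclear receptor ESRRA had the highest ratio of the list, 0.30. For factors of mitochondrial DNA, the ratios were −0.40 for the transcription factor TFB2M, −0.37 for the helicase TWNK, −0.29 for TFAM, −0.28 for MTERF1, −0.14 for TFB1M, −0.06 for the RNA polymerase POLRMT and −0.05 for LRPPRC, which stabilises mitochondrial mRNA. The 8 members with NRF1 letters had a median ratio of 0.04 and the 22 without had 0.03. For the ETS letters the medians were 0.06 with and 0.003 without. The 3 with YY1 letters, ATP5PF, SDHB and UQCRC1, had −0.16 against 0.05, and for the Sp1 box the medians were 0.02 with and 0.08 without.

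The citric acid cycle, to which complex II also belongs, had a median log2 ratio of −0.12 over 14 other enzyme genes, with 10 below 0, and the median stayed below that of all genes under the 12 settings compared. FH, fumarase, which acts on the product of complex II, had signals of 1.098 and 0.399, a ratio of −0.70. IDH3G, a regulatory subunit of isocitrate dehydrogenase, had the highest ratio, 0.77. These 2 were the genes of the cycle past 1.5-fold, in opposite directions. Of all genes, 10.5% were 1.5-fold lower, 12.4% were 1.5-fold higher and 49% were below 0.

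**Figure D5:**
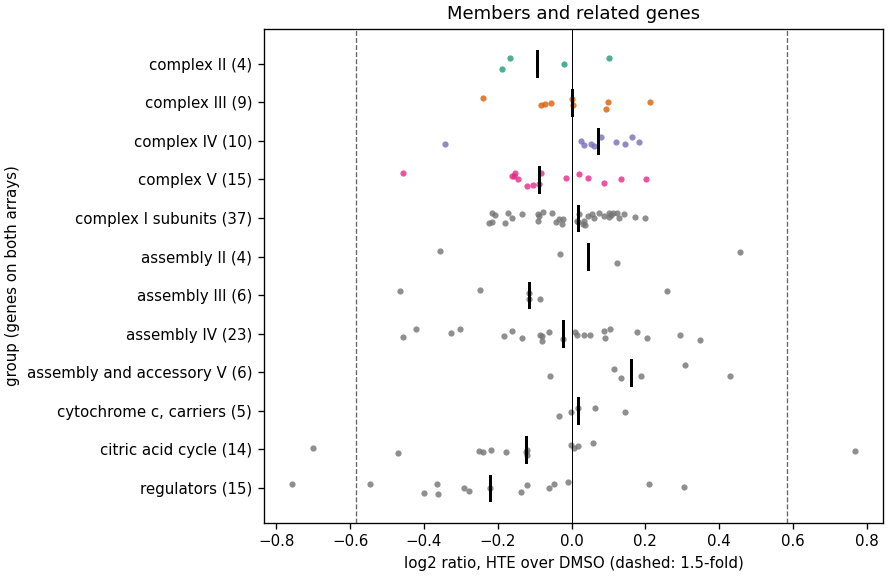
Log2 ratio (HTE over DMSO) of each gene of complexes II to V and of related gene groups, with the number of genes on both arrays in brackets, a black bar at the group's median and dashed lines at 1.5-fold (1 array per condition). Subunits of complexes I to V lie close around 0, assembly factors spread more widely, and 13 of the 15 regulators lie below 0.

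The arrays carried the markers of the labelled line. All 12 hepatocyte markers, ALB among them (5.21 and 5.40), were well above background on both arrays, with ratios from −0.58 (FGG) to 0.32 (AHSG). The dimmest were FGB (0.39 and 0.03) and HNF4A (−2.19 and −2.05). HNF4A was dimmer than the leukocyte marker CD68 (0.04 and 0.51) on both arrays, and FGB was dimmer than CD68 on the HTE array. Of other cell types, 3 of 6 fibroblast, 3 of 5 leukocyte and 2 of 4 endothelial markers were measured, the brightest of them at a signal of 0.51. These moved in both directions, from PECAM1 (−1.82) and CD14 (−1.77) to CD68 (0.46). The fibroblast markers ran from COL1A1 (−0.63) to PDGFRB (0.17), and VWF (−0.63) was the other endothelial marker. The part of these markers in the ratios of the 38 genes was not tested. The 75th percentile that sets the scale was a signal of 4020.0 on the DMSO array and 3570.3 on the HTE array, and 60.6% and 56.6% of spots were well above background.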

How the data were processed

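HepG2 cells were profiled on 1 Agilent 1-colour array with DMSO and 1 with HTE, grouped by the sample labels. The authors deposited the Feature Extraction output (version 11.5.1.1 per the file headers, 10.7 per the submitters' processing notes), whose processed signal is a background-subtracted intensity that was not scaled between arrays. The header's annotation build is hg19, so no probe positions are given. From these deposited intensity values log2 was taken and each array's 75th percentile over spots that are not controls was subtracted. Replicate spots were averaged per probe without the outlier spots (440 and 459 of 58717). Probes entered where a share of 0.5 or more of their spots passed the software's flag for well above background on either array. A probe kept through 1 array entered with a bound, and none of the 38 genes was such a case. Probes were named by RefSeq accession in the gene table of GRCh38.p14 (28174 of 50599 matched), and the brightest probe stood for a gene.

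The members, lists, motifs and folds were chosen with earlier results of these data known. Genes named are all 38 members, the highest and lowest of each list, all regulators, assembly factors past 1.5-fold (there were none) and all paralogs measured. ATP5MJ and ATP5MK were named in addition, as accessory subunits of complex V. With 1 array per condition no test was run, and the number of arrays limits the precision. The steps were tested on simulated data made from the DMSO array with shifts above 2-fold. That test does not bear on differences as small as those of the 38 genes. Alternatives were no scaling, scaling to the median or to the E1A spike-in probes, quantile and cyclic loess normalization, normexp background correction (offset 50, on median signals), other filters, and other rules for probes. Normalization ran in limma 3.58.1 (R 4.3.3). All other steps ran in Python 3.11.15 (pandas 2.3.3, numpy 2.4.6), and plots were drawn with matplotlib 3.10.9. Rat liver data were not analysed here.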

Additional observations from a re-analysis of the deposited data

How the results depend on the processing

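No paired analysis was possible because each condition has 1 array and both carry the same number. A median was taken as moved when it changed by more than 0.051, the median SD among replicate spots. Scalings shift all genes alike. With no scaling all genes had a median of −0.16, the 38 genes −0.17 and complexes II to V −0.27, −0.17, −0.10 and −0.26, with 35 genes below 0 and 1, ATP5MC1, at least 1.5-fold lower. Scaled to the medians these were −0.070, −0.077, −0.17, −0.078, −0.0094 and −0.17, and 27 genes were below 0. Scaled to the E1A spike-in probes all genes had a median of −1.33, the 38 genes −1.33 and complexes II to V −1.43, −1.33, −1.26 and −1.42. All 38 were then below 0, 38 at least 1.5-fold lower and 38 at least 2-fold changed, as were 76.2% of all genes. Against the median of all genes the 38 differed by −0.007 in each of these 3. Quantile normalization gave a median of −0.054 with 25 genes below 0. Complex II had −0.017 with normexp, −0.037 with the mean over all probes and 0.11 with the next brightest probe, which exists for 9 genes. With that probe complex IV had −0.28 (COX5A alone), complex V 0.027, and 4 genes were below 0. The cause of these moves was not tested beyond what the scalings and the fewer genes bring by construction. Cyclic loess, outlier spots kept, and either no filter or one on both arrays for dim probes moved none of these medians. Relative to the median of all genes, 16 of the 38 genes stayed below and 14 above under the 7 scalings, normalizations and background corrections, and 8 changed side. The scalings nearly agree here by construction, so the sides kept rest on quantile normalization, cyclic loess and normexp. ATP5MC1 had the lowest ratio under all settings but the next brightest probe, for which it has no second probe.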

Other observations

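COX6B2, annotated as the testis form of subunit VIb, had signals of 6.16 (DMSO) and 6.28 (HTE) relative to the 75th percentile of each array, although the cells are of liver origin. The probe's sequence was not used here, and what the probe binds was not tested. Its log2 ratio was 0.11, and that of COX6B1, the form found in most tissues, was 0.18.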
